A study of Rattus norvegicus with 8 samples.

Results

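The cytosolic ribosomal protein genes were followed in the right Achilles tendon of 8 male wild-type Sprague-Dawley rats, 8 to 10 weeks old, by sequencing of polyadenylate mRNA with 1 library per rat. The running rats (n = 4, called 12 h p.r.) ran for 1 h on a treadmill at 20 m/min on a 10° incline and were killed 12 h later. The naïve control group (NC) was 4 rats that stayed in their cages and were killed at the same time. The genes were chosen by symbol alone, as protein-coding genes named *Rpl* or *Rps* with a number (and at most a short suffix), together with *Rplp0*, *Rplp1*, *Rplp2*, and *Rpsa*. This rule gave 90 of the 32883 genes in the count table, under 84 different symbols, with 56 genes of the large and 34 genes of the small ribosomal subunit. Of the 80 symbols of the standard set of ribosomal proteins, 73 were among them. *Rpl37*, *Rps7*, *Rps13*, and *Rps26* were not found as symbols in the table.

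A cytosolic ribosome is built from a large and a small subunit, each made of ribosomal RNA and a single copy of nearly every one of its ribosomal proteins. Most ribosomal protein genes are highly expressed in most cells. Their mRNAs belong to the terminal oligopyrimidine class, which begins at a C followed by a run of C and U and is translated under the control of mTOR. In tendon, the fibroblast-like tenocytes that synthesize collagen carry much of the translation, and loading of a tendon is known to raise collagen synthesis for hours to days. The comparison of the running with the caged rats asks how far mRNA levels in the tendon were from rest 12 h after a run.

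The libraries held 7350509 to 12951397 reads on genes. At this depth, 61 of the 87 ribosomal protein genes that passed the filter on low counts (filterByExpr of edgeR) had at least 1000 reads in every rat, and 11 had fewer than 100 reads in some rat. The 3 genes that did not pass were *Rpl39* with 3 reads over all rats, *Rpl30l1* with 44, and 1 of the 4 genes named *Rpl21* (ENSRNOG00000049848) with 56. Expression is given as CPM, the count scaled to the total of the library after TMM normalization, where rats are compared, and as FPKM of the authors, which also divides by gene length, where genes are compared. Tenocyte markers were all detected (10 of 10 genes). In sum they stood at 34561 to 56459 CPM in 7 rats and at 20245 CPM in the 12 h p.r. replicate 3, the rat in which the skeletal muscle markers (10 of 12 in the table, none at 0) summed to 59487 CPM against 2438 to 11334 CPM in the others. In bulk tissue, fewer cells of a type and less RNA per cell cannot be told apart.

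The start of a ribosomal protein mRNA carries the pyrimidine tract, so the annotated starts of the genes on which the results below turn were read from RefSeq (assembly GRCr8), where 64 of the 84 symbols had an entry. A C at the start base followed by 4 bases that are each C or T, read on the strand of the gene, stood in 21 of these 64 (32.8%) and in 2.63% of all 33469 starts in that table. The letters CTTTC, from 10 bases before to 20 bases after the start on that strand, stood in 34.4% of the ribosomal protein genes and in 3.39% of all starts. Of the 45 ribosome biogenesis genes described below, 42 had an entry, and 9.52% held the C with its pyrimidines at the start base. Of the translation factors also described below, which are known as members of the same mRNA class, 0 of 14 with an entry held it at the annotated base. Shown are 15 bases before the start and 15 from the start on, as the coding strand, first 4 genes with the tract and then 5 without it at the annotated base. Capitals mark the unbroken run of C and T that covers the start base.
*Rps14* (chr18:56498245-56498274, plus strand): cccttccgTCTCTCTCTTTCCggtggagga
*Rplp0* (chr12:46718376-46718405, minus strand): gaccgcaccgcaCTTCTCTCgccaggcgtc
*Rplp1* (chr8:71290858-71290887, minus strand): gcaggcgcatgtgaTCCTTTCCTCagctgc
*Rpl35a* (chr11:81235007-81235036, minus strand): gcgggtcttgCCTTCCTCTTTCCgccatct
*Rps2* (chr10:14251833-14251862, plus strand): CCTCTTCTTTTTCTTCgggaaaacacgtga
*Rpl13a* (chr1:104748899-104748928, minus strand): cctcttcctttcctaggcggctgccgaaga
*Rplp2* (chr1:205975906-205975935, plus strand): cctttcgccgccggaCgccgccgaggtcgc
*Rpl41* (chr7:1563483-1563512, minus strand): ggcggctcggaagtgacgacaccaagcacg
*Rpl3l* (chr10:14258431-14258460, plus strand): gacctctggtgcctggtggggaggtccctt
In *Rps2* the pyrimidine run ends at the annotated start base, in *Rpl13a* a run ends shortly before it, and in *Rplp2* only a single C covers it. *Rpl41* and *Rpl3l*, the striated muscle paralog of *Rpl3*, have no pyrimidine at that base. The 20 tested genes whose symbol has the tract at the annotated base had a median log2 fold change of 0.09 between the groups (range, −0.26 to 0.28), and the 46 tested genes whose symbol has an entry without it had 0.03 (range, −1.84 to 0.82). These are descriptions of an annotation, and no difference was tested.

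At rest, ribosomal protein genes were among the most abundant mRNAs of the tendon. The median level of the 87 tested genes in the NC rats was 622 FPKM. Of the 90 genes, 31 reached 1000 FPKM, and 36 ranked among the 100 protein-coding genes with the highest FPKM. Yet the spread between genes was wide. The highest level of a tested gene was 814 times the lowest.

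*Rpl41*, which encodes the smallest of the ribosomal proteins, was the highest at 3880 ± 608 FPKM (SD, n = 4). It was followed by 1 of the 2 genes named *Rps27a* (ENSRNOG00000004426), which makes a fusion of ubiquitin with a small subunit protein, at 2139 ± 726 FPKM. The small subunit genes *Rps25* (2040 ± 217 FPKM) and *Rps14* (1885 ± 313 FPKM), and *Rpsa*, a small subunit protein also known as the laminin receptor precursor (1833 ± 350.5 FPKM), came next. Neighbours in this order, from *Rps27a* to *Rpsa*, differed by less than 1 SD.

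At the low end were the paralogs *Rpl10l* (4.77 ± 1.18 FPKM) and *Rpl39l* (5.70 ± 2.21 FPKM), both best known from the testis, and *Rpl3l* (16.5 ± 7.61 FPKM). They were joined there by standard subunit genes, *Rpl35a* at 5.80 ± 2.27 FPKM and *Rpl8* at 7.47 ± 1.40 FPKM. In all, 14 of the 79 genes with a standard symbol were under 100 FPKM in the NC rats, among them *Rpl39*, *Rps29*, *Rpl9*, *Rpl38*, *Rps9*, *Rps6*, *Rpl13a*, both *Rpl7a* genes, and *Rplp2*. For *Rpl9* and *Rps29* most reads of the protein stood on another gene of the table, as described below. A low level here is thus a level of a gene model and need not be that of the protein's mRNA. With matched copies summed, other families stayed low in the 8 rats. *Rpl8* was then at 4.68 to 8.41 CPM, *Rpl38* at 7.63 to 14.7, *Rpl39* at 11.6 to 17.8, and *Rpl35a* at 23.4 to 32.4 CPM. *Rps6*, *Rps9*, and *Rpl13a* had no matched copy. Of the 1632 genes named LOC and a number, 741 could be matched to a RefSeq gene, so copies may have gone unmatched. The reason for these low levels was not tested.

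**Figure D1:**
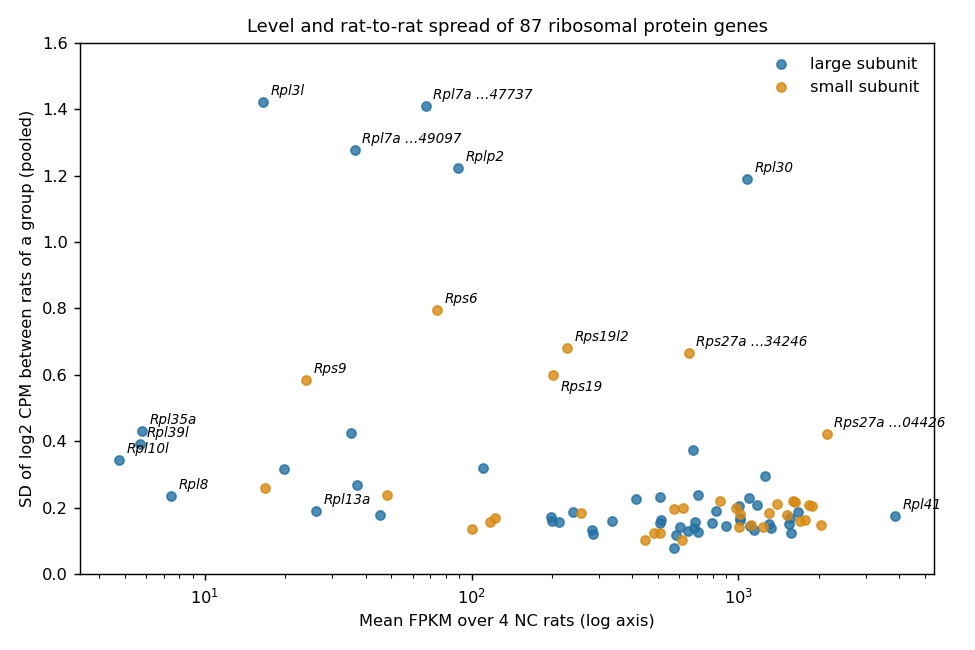
Mean FPKM over the 4 NC rats (x axis, log scale) against the SD of log2 CPM between rats of the same group, pooled over both groups (y axis), for the 87 ribosomal protein genes tested, with 1 point per gene and subunits by colour. Most points lie at high FPKM under an SD of 0.25, and 10 genes lie above 0.5, among them *Rpl30* at 1079 FPKM. Digits after a repeated symbol are the last 5 of the gene identifier.

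The share of all reads that fell on ribosomal protein genes differed between the groups by less than the spread between rats. It was 4.52, 5.13, 4.17, and 5.32% in the 12 h p.r. replicates 1 to 4, a mean of 4.79 ± 0.53% (SD, n = 4). It was 5.38, 4.77, 4.24, and 4.76% in the NC replicates 1 to 4, a mean of 4.79 ± 0.47%. The ranges of the groups overlapped almost fully. The exact 95% binomial interval (Clopper-Pearson) of the lowest share was 4.16 to 4.18%, which covers counting error only. Small subunit genes took 42.9 to 44.0% of these reads in every rat.

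Within each group, the ribosomal protein genes moved together from rat to rat. In the NC group, replicate 1 was the highest rat for 70 of the 87 genes and replicate 3 the lowest for 71, and 61 genes had both, against 7.48% of all genes tested. In the 12 h p.r. group, replicate 4 was the highest for 57 and replicate 1 the lowest for 49, and 38 genes had both, against 5.76% of all genes tested. Both orders were picked from the values of the ribosomal protein genes, so the shares over all genes are a description and not a test. The median deviation of the 87 genes from their own mean, in log2 CPM, was −0.13, 0.07, −0.03, and 0.16 in the 12 h p.r. replicates 1 to 4. In the NC replicates 1 to 4 it was 0.18, 0.04, −0.21, and −0.10. The SD of these medians was 0.12 within the 12 h p.r. group and 0.17 within the NC group, and the group means were 0.02 and −0.02.

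By this median deviation, the lowest rat of each group was also the one with the highest cartilage and bone markers. By the share of reads, the lowest 12 h p.r. rat was replicate 3, which had the lowest sum of these markers. *Col2a1*, the collagen of cartilage, was at 167 CPM in the 12 h p.r. replicate 1 and at 594 CPM in the NC replicate 3, and at 1.79 to 10.8 CPM in the other 6 rats. The 11 markers of cartilage and bone, all in the table and 7 past the filter on low counts, summed to 1404 CPM in the 12 h p.r. replicate 1 against 237 to 517 CPM in the rest of its group, and to 2366 CPM in the NC replicate 3 against 430.4 to 581 CPM. The part of this tissue in the levels of the ribosomal protein genes was not tested.

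**Figure D2:**
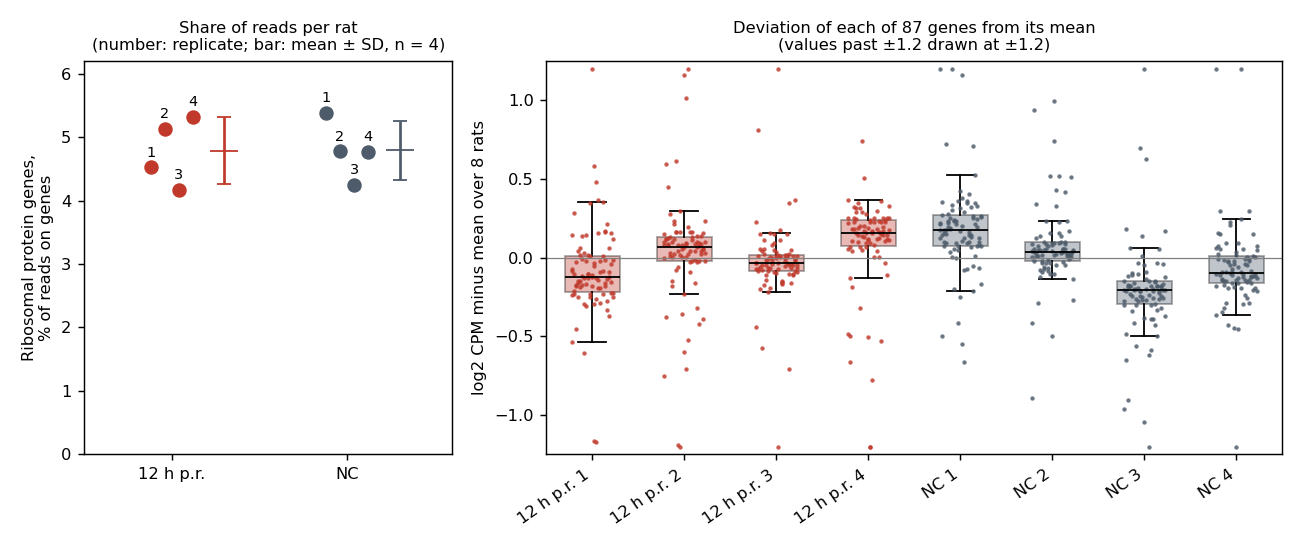
Left, reads on the 90 ribosomal protein genes as percent of all reads on genes, with 1 point per rat, the replicate number above it, and the mean ± SD beside it. Right, log2 CPM of each of the 87 tested genes minus its mean over the 8 rats (points), with boxes for the median and quartiles and whiskers to 1.5 times the box. The groups share a mean of 4.79%, and the boxes of NC replicate 1 (median, 0.18) and NC replicate 3 (median, −0.21) lie on opposite sides of 0.

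Between the groups, 0 of the 87 ribosomal protein genes passed an adjusted p value of 0.05 in the quasi-likelihood test of edgeR, where 1 of 13937 genes did (0.00718%). The smallest adjusted p value among them was 0.432. With the Wald test of DESeq2 the count was also 0, where 96 of the 13825 genes given an adjusted p value passed. At an unadjusted p value under 0.05, 3 were higher at 12 h p.r. (3.45% of the 87, background 5.44%) and 2 were lower (2.30%, background 4.08%). Both shares are close to the background for a set of 87 genes, and no difference from it was tested. The counts moved when single rats were left out. They were 1 higher without the 12 h p.r. replicates 1 or 4 or the NC replicates 3 or 4. Over all genes, these fits gave 613 of 14208, 610 of 14045, 704 of 14020, and 517 of 14007 higher. Without the NC replicate 1 the counts were 5 higher and 0 lower, where 632 and 435 of 14043 genes were. Only 1 was lower without the 12 h p.r. replicate 1 (533 over all genes) or the NC replicate 4 (362 over all genes). With total counts in place of TMM factors, the background split was 515 genes higher and 578 lower, against 758 and 568 with TMM factors, while the ribosomal protein genes gave 2 and 2. Those whose 2 groups of rats did not overlap were *Rpl13a* and *Rpl27*, both higher (background 3.52%), and none was lower (background 2.55%).

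The fitted changes were small and centered near 0. Among the ribosomal protein genes, 54 lay above and 33 below 0, where 7557 of the 13937 genes tested lay above and 6380 below. The median log2 fold change was 0.05, against a median of 0.02 over all genes tested. It was 0.06 in the large and 0.05 in the small subunit. Of the 87 genes, 71 lay within 0.25 of 0. The median standard error was 0.15 (0.17 over all genes), and the 95% interval excluded a change of 1.5-fold in either direction for 60 genes and of 2-fold for 78. The sign of the median is not firm. It was −0.01 without the 12 h p.r. replicate 4 and −0.01 without the NC replicate 3, and 0.11 without the NC replicate 1.

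**Figure D3:**
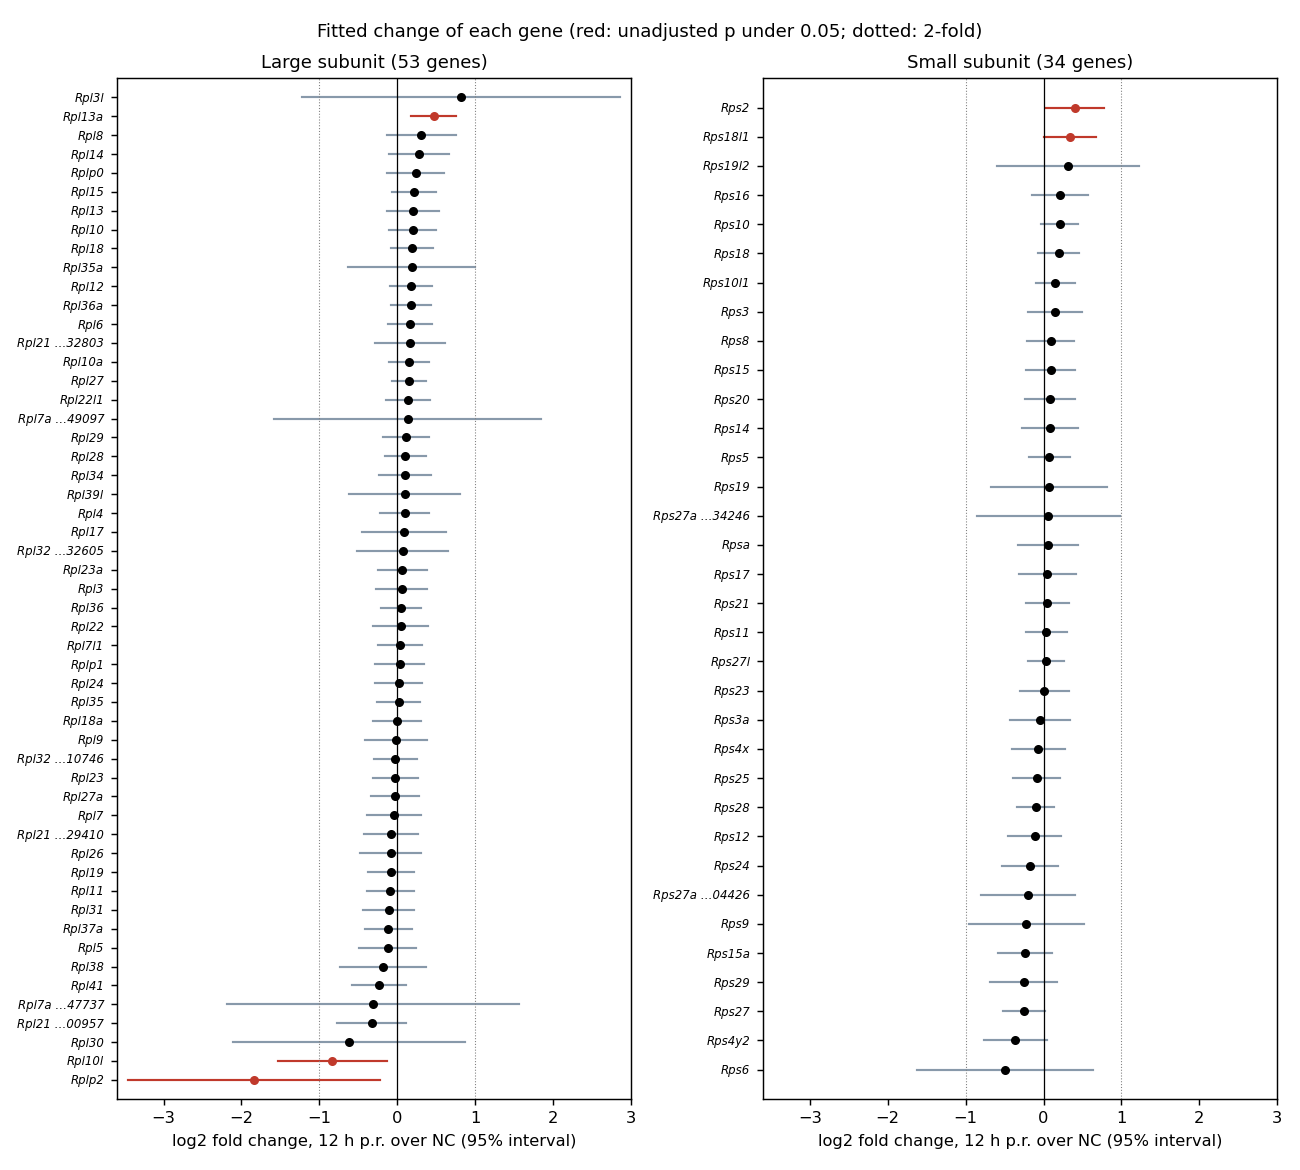
Log2 fold change of 12 h p.r. over NC with its 95% interval (x axis) for the 53 large and 34 small subunit genes tested, sorted by value. Red marks the 5 genes with an unadjusted p value under 0.05, none of which passes after adjustment over all genes. Dotted lines stand at a 2-fold change in either direction.

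*Rpl13a*, a large subunit protein also known for a separate role in silencing inflammatory mRNAs, had the smallest p value. It was at 93.1, 86.7, 105, and 106 CPM in the 12 h p.r. replicates 1 to 4 and at 71.2, 86.0, 58.5, and 67.7 CPM in the NC replicates 1 to 4. All running rats were above all caged rats, though the closest pair, 86.7 and 86.0 CPM, nearly touched. The log2 fold change was 0.47 ± 0.13 (SE), with an unadjusted p value of 0.00567 and an adjusted p value of 0.432 by edgeR, and an exact permutation p of 0.0286, the smallest that 4 against 4 rats allow. Its unadjusted p value lay between 0.00127 and 0.0205 under the 19 other settings tried. At 26.1 FPKM in the NC rats it was among the standard genes under 100 FPKM.

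*Rps2*, a small subunit protein near the entry of the mRNA channel, was at 952, 922, 1007, and 1110 CPM at 12 h p.r. and at 997, 647, 711, and 670 CPM in the NC replicates 1 to 4. The NC replicate 1 lay among the running rats and the other NC rats lay below all of them. The log2 fold change was 0.40 ± 0.17, with an unadjusted p value of 0.0389 and an adjusted p value of 0.498 by edgeR. The unadjusted p value was 0.00313 without the NC replicate 1, and it was above 0.05, up to 0.0996, without any of 6 other rats (the 12 h p.r. replicates 1, 3, and 4 and the NC replicates 2, 3, and 4). *Rps18l1*, a gene listed beside *Rps18*, which encodes a small subunit protein of the head, was at 791, 834, 712, and 916 CPM at 12 h p.r. and at 737, 707, 539, and 589.9 CPM in the NC replicates. Its log2 fold change was 0.34 ± 0.15 (unadjusted p, 0.0460, adjusted p, 0.517, edgeR), and the unadjusted p was under 0.05 in 8 of the 19 other settings and up to 0.123 in the rest. Among the latter were the omission of the 12 h p.r. replicates 1, 2, or 4 or of the NC replicates 3 or 4, and total counts alone (p, 0.0663, edgeR). The 2 groups overlapped in *Rps18l1* by its 712 and 737 CPM, and *Rps18* itself, at 57.5 to 83.3 CPM in all rats, had a log2 fold change of 0.19 ± 0.12.

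*Rpl27*, a large subunit protein, was at 284, 316, 291, and 319 CPM in the 12 h p.r. replicates 1 to 4 and at 277, 278, 254, and 283 CPM in the NC replicates. The groups touched at 284 and 283 CPM. It had the smallest spread of all 87 genes, an SD of 0.08 in log2 CPM, and a log2 fold change of 0.15 ± 0.10 (unadjusted p, 0.156, edgeR). It was outside the rule for named genes and is named because it was 1 of the 2 genes without overlap.

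The stalk of the large subunit, which recruits elongation factors, is made of *Rplp0*, *Rplp1*, and *Rplp2*. *Rplp0* was at 2057, 1983, 2130.1, and 2459 CPM at 12 h p.r. and at 2257, 1812, 1664, and 1584 CPM in the NC replicates, a log2 fold change of 0.24 ± 0.16. *Rplp1* was at 786, 701, 808, and 867 CPM and at 942, 738, 726, and 691 CPM, a log2 fold change of 0.03 ± 0.14. Neither passed an unadjusted p of 0.05. *Rplp2* had the most negative value of all, −1.84 ± 0.71 (unadjusted p, 0.0296, adjusted p, 0.480, edgeR).

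The value of *Rplp2* came from 2 caged rats. It was at 8.80, 7.51, 9.40, and 9.11 CPM in the 12 h p.r. replicates and at 66.6, 6.75, 6.42, and 44.6 CPM in the NC replicates 1 to 4. The other 2 NC rats were thus below every running rat, and the exact permutation test gave p = 0.429. Without the NC replicate 1 the log2 fold change was −1.15 with an unadjusted p of 0.116, without the NC replicate 4 it was −1.61 with 0.0703, the p value was 0.164 with limma on log2(FPKM + 1), and it was also above 0.05 without the 12 h p.r. replicates 1, 2, or 4. The NC replicates 1 and 4 had the highest sums of 10 leukocyte markers (3909 and 4177 CPM, with the remaining 6 rats at 663 to 2827 CPM) and of the 4 of 8 erythroid markers in the table (2654 and 2880 CPM, with the rest at 511 to 2157 CPM). The part of these cells in the reads on *Rplp2* was not tested. The 12 h p.r. replicate 2 had the next highest value in both sums and was at 7.51 CPM of *Rplp2*.

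Reads of a ribosomal protein can fall on several genes of the rat annotation. RefSeq lists 1190 rat genes with a ribosomal protein symbol, 883 of them as pseudogenes, and 67 rows of the count table beside the 90 genes could be matched to such a copy by symbol. How reads that match several places were counted is not stated in the sources used here, so the split between a gene and its copies is uncertain. For 6 of the 29 proteins with a gene under the rule and a copy with reads in some rat, the copies held more reads.

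*Rpl9*, a large subunit gene, was at 16 to 27.2 CPM in the 8 rats, while LOC100360449, named *Rpl9-ps31* by RefSeq, was at 963 to 1644 CPM. *Rps29* was at 5.31 to 9.57 CPM and LOC108350501, named *Rps29-ps15*, at 781 to 1100 CPM. The small subunit protein *Rps7*, which has no row under its own symbol, was represented by LOC100362830, named *Rps7-ps23*, at 814 to 1127 CPM. These rows stood at the level of the standard genes, and their log2 fold changes were 0.01, −0.05, and 0.01.

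In other families the reads shifted between rows from rat to rat. *Rpl30*, a large subunit gene, was at 479, 647, 92.2, and 81.2 CPM in the 12 h p.r. replicates 1 to 4 and at 716, 639, 299, and 341 CPM in the NC replicates, which gave it a log2 fold change of −0.62 ± 0.66. LOC100362027, named *Rpl30l2*, was at 218, 278, 722, and 815 CPM and at 372, 318, 443, and 524 CPM in the same order. The 4 rats highest in *Rpl30* were the 4 lowest in *Rpl30l2*. Their sum with the other rows of the family lay between 697 and 1089 CPM in the 8 rats, with an SD of 0.21 in log2 CPM against 1.19 for *Rpl30* alone, and had a log2 fold change of −0.13 ± 0.16.

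The 2 genes named *Rps27a* differed in the same way. ENSRNOG00000004426 was at 769, 1108, 614, and 1036 CPM at 12 h p.r. and at 1507, 748, 955, and 831 CPM in the NC replicates. ENSRNOG00000034246 was at 408, 258, 587, and 237 CPM and at 237, 643, 213, and 333 CPM. It was highest in the 12 h p.r. replicate 3 and the NC replicate 2, the lowest rats of each group in the former. The former had a log2 fold change of −0.20 ± 0.27. The sum over the family was 1165 to 1744 CPM, with a log2 fold change of −0.12 ± 0.16. *Rps19*, a small subunit gene mutated in Diamond-Blackfan anemia, stood beside *Rps19l2*. *Rps19* was lowest in the 12 h p.r. replicate 2 (45.1 CPM, against 115 to 173 CPM in the rest of that group), where *Rps19l2* was highest (249.5 CPM, against 78.5 to 114 CPM). *Rps19l2* had a log2 fold change of 0.31 ± 0.40, and the family 0.21 ± 0.18.

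**Figure D4:**
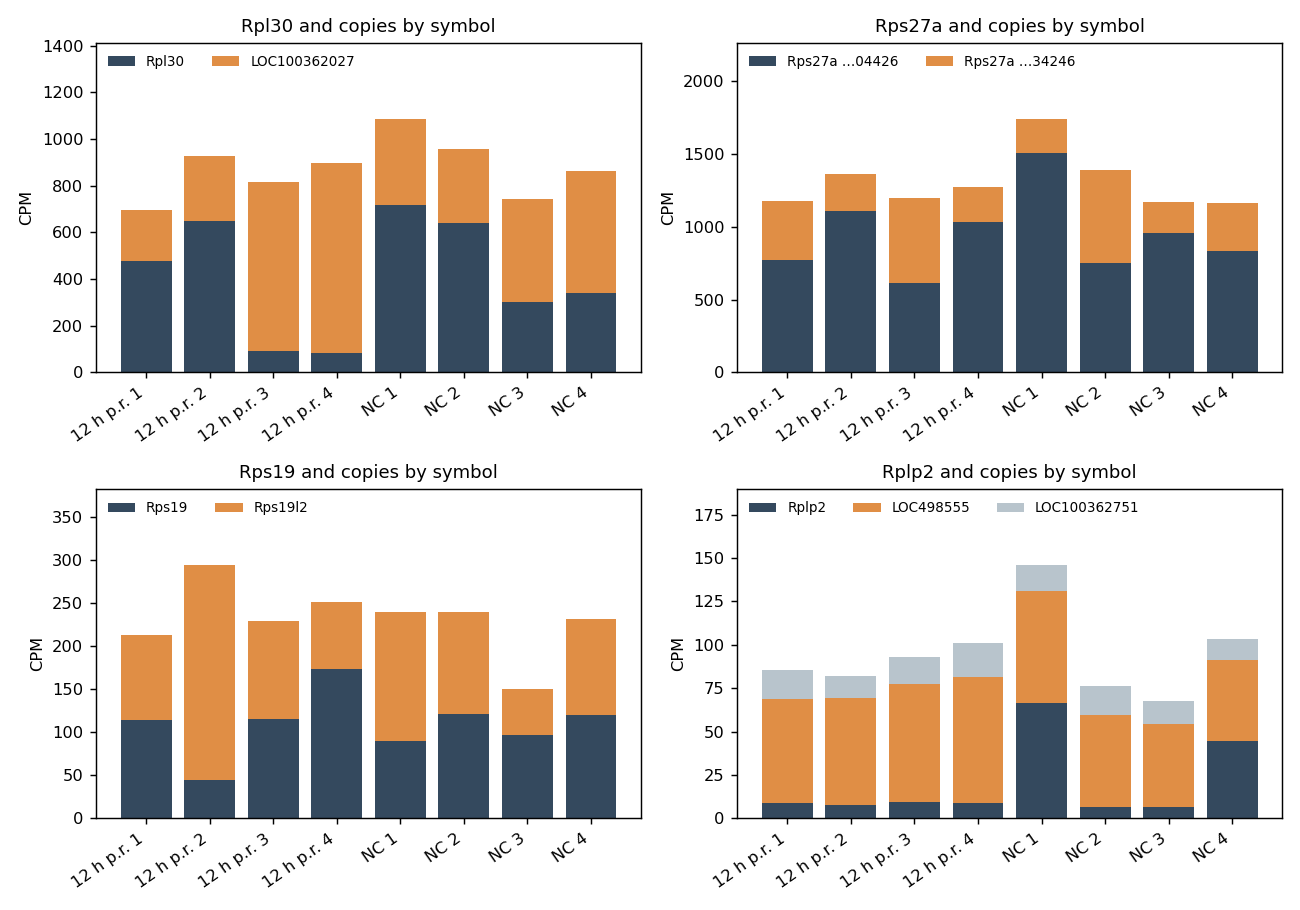
CPM per rat (stacked bars) of *Rpl30*, *Rps27a*, *Rps19*, and *Rplp2* and of the main rows that carry the same protein by symbol, in the 8 rats. The height of the bars varies less than the parts for *Rpl30*, where the dark part falls to 92.2 and 81.2 CPM in the 12 h p.r. replicates 3 and 4, and the tall dark parts of *Rplp2* are in the NC replicates 1 and 4.

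Summed over matched copies, 85 proteins could be tested, and the values stayed small. At an unadjusted p under 0.05, 2 were higher (*Rpl13a* and *Rps2*, background 5.43%) and 1 was lower (*Rpl10l*, background 4.07%), with 0 after adjustment and a median log2 fold change of 0.03. The family of *Rps2* had a log2 fold change of 0.44 ± 0.16 (unadjusted p, 0.0207, edgeR). The family of *Rplp2* had −0.12 ± 0.22, and its copies LOC498555 (46.4 to 72.6 CPM) and LOC100362751 (12.3 to 19.5 CPM) held most of its reads in the running rats. This way of counting was chosen after the data had been seen.

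The spread between rats of a group set apart a few more genes. The median SD was 0.18 in log2 CPM for the 87 genes and 0.23 for all genes tested. At a mean of at least 100 CPM, it was 0.17 for 66 of these genes and 0.19 for 1556 other protein-coding genes. Of the 87 genes, 10 exceeded 0.5. Besides the families above, these were *Rps6*, *Rps9*, both *Rpl7a* genes, and *Rpl3l*. *Rps6*, the substrate of the S6 kinases and a common readout of mTOR activity, was at 28.2, 66.3, 37, and 34.5 CPM at 12 h p.r. and at 131, 41.1, 29.0, and 31.9 CPM in the NC replicates. The NC replicate 1 stood above all other rats. The log2 fold change of −0.49 ± 0.50 turned to 0.29 without it. The *Rpl7a* gene ENSRNOG00000047737 was highest in the 12 h p.r. replicate 2 (103 CPM) and the NC replicate 4 (139 CPM), at 10.6 to 45.4 CPM elsewhere. The *Rpl7a* gene ENSRNOG00000049097 was highest in the 12 h p.r. replicate 1 (68.9 CPM) and the NC replicate 3 (77.0 CPM), at 5.27 to 24.4 CPM elsewhere.

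Paralogs of ribosomal proteins, which can take the place of the standard protein in some tissues, included 8 listed genes in the table, of which *Rpl36al* (log2 fold change, −0.15 ± 0.15) is outside the rule by its symbol. Of the 8, 0 were higher and 1 was lower at an unadjusted p under 0.05 (12.5%, background 4.08%). *Rps18l1* and *Rps10l1*, taken as paralogs by symbol only, were not on that list, and *Rps18l1* was higher at an unadjusted p under 0.05, as given above. *Rpl3l* was at 8.28, 11.6, 129, and 7.98 CPM in the 12 h p.r. replicates 1 to 4 and at 13.0, 32.5, 29.9, and 13.9 CPM in the NC replicates. The 12 h p.r. replicate 3, the rat with the skeletal muscle markers at 59487 CPM, was alone at its height, and the other 3 running rats were below all NC rats. The fitted log2 fold change of 0.82 ± 0.90 turned to −1.26 without that rat (unadjusted p, 0.00768, adjusted p, 0.378, edgeR). With the skeletal muscle markers as a covariate it was −0.08. The NC replicates 2 and 3, the higher ones in *Rpl3l*, also had the higher muscle sums of their group, 9669 and 11334 CPM against 2438 and 3687 CPM. The NC replicate 4 had a lower muscle sum than the NC replicate 1 (2438 against 3687 CPM) but more *Rpl3l*. In the 12 h p.r. group, replicate 2 had the lowest muscle sum, 2646 CPM, and the second highest *Rpl3l*. The part of muscle in the reads on *Rpl3l* was not tested.

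*Rpl10l*, the other paralog at the low end, was at 2.59, 1.71, 1.19, and 1.41 CPM at 12 h p.r. and at 4.01, 3.19, 2.19, and 2.89 CPM in the NC replicates. The groups overlapped in the 12 h p.r. replicate 1 and the NC replicate 3. The log2 fold change was −0.84 ± 0.31 (unadjusted p, 0.0241, adjusted p, 0.476, edgeR), on 10 to 50 reads per rat, and the unadjusted p value was above 0.05 without the 12 h p.r. replicates 3 or 4 or the NC replicate 1. *Rps4y2*, a paralog of *Rps4x*, was at 8.45 to 14.9 and 14.2 to 17.6 CPM, a log2 fold change of −0.37 ± 0.18 (unadjusted p, 0.0713, edgeR). *Rpl22l1*, a paralog of *Rpl22*, was at 105 to 136 and 100.1 to 131 CPM, a log2 fold change of 0.14 ± 0.12. *Rps27l*, a p53 target, was at 59.7 to 79.2 and 66 to 74.6 CPM, with 0.03 ± 0.10. In both genes the groups overlapped over most of their range. *Rpl7l1* had a log2 fold change of 0.03 ± 0.12, *Rps10l1* had 0.15 ± 0.11, and *Rpl39l* had 0.10 ± 0.32 on 16 to 42 reads per rat.

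The most abundant genes also overlapped between the groups. *Rpl41* was at 1380.1, 1482, 1412, and 1581 CPM in the 12 h p.r. replicates 1 to 4 and at 2014, 1846, 1392, and 1643 CPM in the NC replicates 1 to 4, a log2 fold change of −0.24 ± 0.15. Of the NC rats, 3 were above every running rat and replicate 3 was among them. *Rpsa* was at 1927, 1793, 1879, and 2177 CPM and at 2331, 1958, 1533, and 1657 CPM in the same order, with a log2 fold change of 0.06 ± 0.17. *Rps14* was at 828, 968, 818, and 1038 CPM and at 1045, 883, 707, and 813 CPM, with 0.08 ± 0.16. In *Rpsa* and *Rps14* the NC group spanned the widest range, from replicate 3 to replicate 1, with the running rats inside it. *Rps25* was at 629 to 785 and 668 to 865 CPM, with −0.09 ± 0.13.

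The standard genes at the low end gave wide intervals. *Rpl8*, a large subunit gene, had a log2 fold change of 0.31 ± 0.20 on 43 to 88 reads per rat. *Rpl35a*, another large subunit gene, had 0.18 ± 0.36 on 11 to 30 reads per rat.

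Genes that work beside the ribosomal proteins were compared in the same fit, and none of the lists held a gene past an adjusted p of 0.05. The largest share of unadjusted calls was among the ribosome biogenesis factors, which process and assemble the subunits in the nucleolus. Of 45, 9 were lower (20%, background 4.08%) and 0 were higher, with a median log2 fold change of −0.04. The lists were chosen with earlier results of these data known, and no difference from the background was tested. *Utp20*, a factor of the small subunit processome, was at 20.6, 25.8, 19.9, and 19.6 CPM at 12 h p.r. and at 29.4, 26.0, 32.2, and 31.5 CPM in the NC replicates, so that no rat of one group reached the other. Its log2 fold change was −0.47 ± 0.12 (unadjusted p, 0.00353, adjusted p, 0.402, edgeR). *Nop56*, a core protein of the box C/D particles that guide methylation of ribosomal RNA, was at 36.4 to 51.0 and 53.1 to 60.9 CPM, a log2 fold change of −0.41 ± 0.12 (adjusted p, 0.432, edgeR). The count of lower genes was 5 without the 12 h p.r. replicates 1 or 4 or the NC replicate 1, and 6 to 9 without the others. Over all genes, the fits with 5 gave 533 of 14208, 464 of 14045, and 435 of 14043 lower. The other fits ranged from 362 of 14007 to 757 of 14236 lower.

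Translation factors known to belong to the same mRNA class had mostly positive values. None of the 14 with an entry held the tract at its annotated start. Of 17 tested, 15 had a positive log2 fold change, where 7557 of all 13937 genes did. At an unadjusted p under 0.05, 2 of the 17 were higher (11.8%, background 5.44%) and 0 were lower (background 4.08%). The median log2 fold change was 0.13. *Eef2*, which moves the ribosome along the mRNA, was at 1869, 1856, 2134, and 2054 CPM at 12 h p.r. and at 1629, 1593, 1434, and 1320 CPM in the NC replicates. The groups did not overlap, and the log2 fold change was 0.41 ± 0.14 (unadjusted p, 0.0152, adjusted p, 0.440, edgeR). With the Wald test of DESeq2 the adjusted p was 0.0337, and under the 18 other settings it lay above 0.05. *Pabpc1*, the poly(A) binding protein, was at 312 to 356 and 246 to 294 CPM, a log2 fold change of 0.30 ± 0.11 (adjusted p, 0.450, edgeR).

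Of the 22 genes of mTOR and Myc control, 1 was higher (4.55%, background 5.44%) and 1 was lower (4.55%, background 4.08%) at an unadjusted p under 0.05. *Mxd4*, a partner of Max that opposes Myc, was at 231 to 262 and 193 to 219 CPM, a log2 fold change of 0.24 ± 0.10. *Mycn*, at 0.845 to 1.58 and 1.19 to 2.45 CPM, had −0.79 ± 0.34. Of the 73 mitochondrial ribosomal protein genes tested, which serve the separate ribosome of mitochondria, 2 were higher (2.74%) and 1 was lower (1.37%), with a median log2 fold change of 0.03. *Mrpl1*, a protein of its large subunit, was lower, at 1.32 to 4.6 against 4.76 to 13.0 CPM (log2 fold change, −1.47 ± 0.46), and *Mrpl37*, another one, was higher (0.41 ± 0.14). None of these 4 passed after adjustment over all genes.

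**Figure D5:**
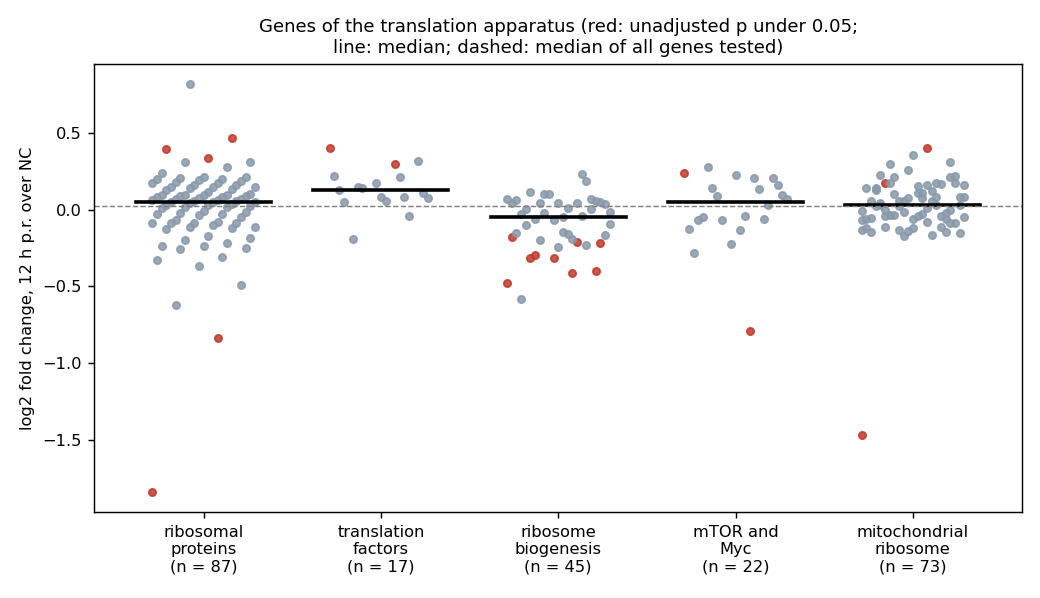
Log2 fold change of 12 h p.r. over NC (y axis) for the genes of 5 lists of the translation apparatus, with 1 point per gene and red for an unadjusted p value under 0.05. Black lines give the medians, 0.05, 0.13, −0.04, 0.05, and 0.03 from left to right, and the dashed line is the median of all genes tested, 0.02.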

How the data were processed

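Right Achilles tendons of 4 rats at 12 h p.r. and 4 NC rats were sequenced as stranded polyadenylate RNA libraries. Per the labels and the methods, the authors used HISAT2 2.1.0 for strand-specific alignment (genome Rnor_6.0) and featureCounts 1.6.3 for counts per gene. The deposited counts are raw, and the deposited FPKM values were computed by the authors from them. The strand setting of the counting step and its handling of reads with several matches are not given in the sources used here. Their table of differential expression holds fold changes and p values of DESeq2 1.30.1 and was not used.

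Counts were filtered with filterByExpr, scaled by TMM, and tested with the quasi-likelihood test of edgeR 4.0.16 in R 4.3.3, with Benjamini-Hochberg adjustment over 13937 genes and a threshold of 0.05. CPM uses the TMM library sizes, and 0.5 was added to the CPM (not to the count) before log2 CPM of single rats was taken. Single genes were also tested with a two-sided exact permutation test of log2 CPM. DESeq2 1.42.0 and limma 3.58.1 on log2(FPKM + 1), where the mean FPKM reached 0.1, were alternatives, as were other scalings, filters, covariates, and the omission of each rat. The steps were tested on simulated data. Total counts were 7350509 to 12951397 per rat, and libraries of a group differed by more than sampling noise.

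Named genes were the 5 highest and 5 lowest in FPKM, the 5 most positive and 5 most negative in log2 fold change, the paralogs by list or by a symbol ending in l, l1, or y2, those with the smallest unadjusted p values under 0.05, the stalk genes and *Rpsa*, and from each other list the 2 genes with the smallest p values. *Rpl27*, *Rps18*, *Rps19*, *Rps9*, *Rpl7a*, *Rpl9*, *Rps29*, the second *Rps27a*, the other genes under 100 FPKM, *Rpl36al*, the copies, and *Col2a1* were added after their values were seen. The genes and lists were chosen with earlier results of these data known. Starts came from RefSeq (GRCr8), and no coordinates of Rnor_6.0 were used.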

Additional observations from a re-analysis of the deposited data

Results flagged for a closer look

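Among 86 groups of 4 rats searched with Dixon's test, 4 held a rat far from the other 3 of its group, where chance gives about 1 in 20 groups. In *Rpl3l*, the 12 h p.r. replicate 3 was at 7.02 in log2 CPM and the next rat at 3.60, and this was the rat with the skeletal muscle markers at 59487 CPM. In *Rpl35a*, the NC replicate 3 was lowest at 0.41 in log2 CPM and the next rat at 1.41, on 11 and 18 reads. The mean log2 CPM of the cartilage and bone markers was 7.45 in the NC replicate 3 and 4.77 in the next NC rat. The small subunit share of the reads on ribosomal protein genes was 43.5% in the NC replicate 1 and 43.1% in the next NC rat, a gap that the 12 h p.r. range of 42.9 to 44.0% covers. The part of the marker tissues in the values of these rats was not tested.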

How the results depend on the processing

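No ribosomal protein gene passed an adjusted p of 0.05 under any of the 19 alternatives. With each rat left out in turn, 1 to 5 of them were higher and 0 to 3 lower at an unadjusted p under 0.05, and their median log2 fold change was −0.01 to 0.11. Over all 14007 to 14236 genes in these fits, 517 to 823 were higher and 362 to 757 lower. The share of reads ranged from 4.61 to 4.99% at 12 h p.r. and from 4.59 to 4.97% in NC rats. In the same order of higher and lower, the ranges were 0 to 4 and 1 to 4 for mitochondrial ribosomal proteins, 0 to 2 and 0 to 1 for mTOR and Myc control, 0 to 1 and 5 to 9 for ribosome biogenesis, and 0 to 2 and 0 to 0 for translation factors. With the 10 most abundant genes left out of the total, the shares were 5.76 and 5.77%, and with copies added, an alternative chosen after seeing the data, 5.38 and 5.37%, since these settings change what is counted.

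DESeq2 gave 1 mitochondrial gene higher, 0 mTOR and Myc genes lower, and 1 translation factor lower, and *Eef2* an adjusted p of 0.0337 (log2 fold change, 0.40). Total counts alone gave 0 mTOR and Myc genes higher, 2 lower, and 1 mitochondrial gene higher. Without a filter these were 0, 0, and 1. limma on log2(FPKM + 1) gave 1 ribosomal protein gene lower, 0 mTOR and Myc genes lower, and 1 translation factor lower. The muscle covariate gave 3 mTOR and Myc genes higher. Summed copies gave 1 ribosomal protein gene lower. Over all genes, DESeq2 gave 687 higher and 600 lower of 13825, and total counts gave 515 and 578 of 13937. Without a filter there were 761 and 687 of 21046, and limma gave 751 and 679 of 17691. The muscle covariate gave 856 and 690 of 13937, and summed copies gave 754 and 565 of 13897. The causes were not tested.

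Replicate numbers did not pair the rats. Same-numbered rats deviated together with correlations of 0.07, −0.20, 0.13, and 0.09, and only number 1 correlated best with its own number. The replicate block gave 549 genes higher and 425 lower over all genes, 1 ribosomal protein gene higher, 0 mTOR and Myc genes higher and 0 lower, 0 translation factors higher, and 5 biogenesis genes lower.

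Signs turned for *Rpl3l*, to −0.16 with limma, −0.21 with the replicate block, and −0.081 with the muscle covariate, and with total counts alone for *Rps27l* (−0.0081), *Rpl7l1* (−0.0068), and *Rplp1* (−0.00039). With single rats left out, the log2 fold changes spanned −1.26 to 1.17 for *Rpl3l*, −0.81 to 0.29 for *Rps6*, −0.17 to 0.51 for *Rps19l2*, −0.32 to 0.062 for *Rps27a* (ENSRNOG00000004426), −0.081 to 0.35 for *Rpl35a*, −0.051 to 0.34 for *Rpl39l*, −0.030 to 0.18 for *Rpsa*, −0.0026 to 0.19 for *Rps14*, −0.021 to 0.14 for *Rplp1*, −0.023 to 0.11 for *Rps27l*, and −0.053 to 0.11 for *Rpl7l1*.

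Depth limits *Rpl10l*, *Rpl35a*, *Rpl39l*, *Rpl38*, and *Rpl8*, with fewer than 100 reads in every rat. With 4 rats a group, the 95% interval excluded a 1.5-fold change for 60 of the 87 genes.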
